A study of Rattus norvegicus with 10 samples.

Results

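The step of PNU-282987 exposure between 3 h and 8 h was read from 1 library on each side, 2 of the 10 libraries of the series, in RPE-J cells. RPE-J is a rat retinal pigment epithelium line made from Long-Evans tissue and transformed with SV40. PNU-282987, written PNU here, activates nicotinic acetylcholine receptors of the α7 type, and both libraries came from cells exposed to 100 nM of it, for 8 h or for 3 h. The other 8 libraries came from the same line given 100 nM PNU for 30 min, 1 h or 12 h, nicotine at 1 µM for 12 h or 1 h, MLA at 100 nM for 12 h or 1 h, or the vehicle DMSO for 12 h. The vehicle was sampled at 12 h, so neither 8 h nor 3 h has a vehicle library of its own time. Polyadenylated RNA was sequenced, and the files give a level per gene, which is the read number divided by a size factor of the pair of libraries. Of 13015 genes listed for the pair, 10806 had a mean level of at least 50 and were compared. There was no replicate on either side, so each ratio below compares 2 libraries and not 2 conditions, no test was made, and intervals cover counting error only.

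Reads in listed genes numbered 15220638 in PNU 8 h, the shallowest of the 10 libraries, and 20740579 in PNU 3 h; over the series they ran between 15220638 and 31510333. Of 36 pigment epithelium genes, 20 were listed for the pair, and their levels, on the scale of the pair, summed to 31737.3 in PNU 8 h and 34542.6 in PNU 3 h. With all 10 libraries scaled together, as for single genes below, Best1, a chloride channel of the pigment epithelium, stood at 5950 in PNU 8 h and 7060 in PNU 3 h, and Mitf, a pigment cell transcription factor, at 131 and 160. Of the 19 pigment epithelium genes compared, 12 had a log2 ratio of PNU 8 h over PNU 3 h below 0 and 7 above. These ratios ran between -0.47 and 0.45, so the lower levels of Best1 and Mitf were not shared by all of these genes. Rpe65, the retinoid isomerase that defines the mature epithelium, and Chrna7, which encodes the α7 receptor subunit, were not analysed here. Among markers of other cell types, 5 of 11 immune genes were listed and summed to 632.5 in PNU 8 h and 624.4 in PNU 3 h on the scale of the pair. Col1a1, the 1 of 8 fibroblast markers listed, had a level of 24304 in PNU 8 h and 36235.7 in PNU 3 h on that scale, a log2 ratio of -0.58. Its part in the results below was not tested.

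Animal cells make cholesterol from acetyl-CoA through mevalonate, farnesyl diphosphate and squalene. The genes of this route are activated by SREBP2, a transcription factor held in the endoplasmic reticulum by INSIG proteins when membrane sterol is plentiful and released when it is scarce. SREBP targets also include, through SREBP1, enzymes that make and desaturate fatty acids. The retinal pigment epithelium handles large amounts of lipid from the outer segments that it engulfs.

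The promoters of 5 of the 15 genes with the lowest ratios are shown because they belong to this sterol and lipid group, and they are RefSeq windows of build GRCr8 from 250 bases before to 50 bases after the gene's start. Capitals mark CCAAT on either strand, the core of the box bound by NF-Y. The core of the sterol regulatory element (TCACNCCAC, either strand) was searched in the same windows and had no match in these 5. Only exact letters were searched, so sites that differ from this string are missed, and no match does not show that a promoter lacks the element.
Insig1 (chr4:8057720-8058019, minus strand): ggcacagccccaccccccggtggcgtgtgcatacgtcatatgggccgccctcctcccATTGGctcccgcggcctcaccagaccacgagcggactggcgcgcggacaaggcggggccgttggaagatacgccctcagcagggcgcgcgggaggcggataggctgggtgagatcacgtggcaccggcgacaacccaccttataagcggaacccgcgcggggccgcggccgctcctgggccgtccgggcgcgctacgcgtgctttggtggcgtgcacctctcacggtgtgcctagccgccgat
Hmgcs1 (chr2:53382054-53382353, plus strand): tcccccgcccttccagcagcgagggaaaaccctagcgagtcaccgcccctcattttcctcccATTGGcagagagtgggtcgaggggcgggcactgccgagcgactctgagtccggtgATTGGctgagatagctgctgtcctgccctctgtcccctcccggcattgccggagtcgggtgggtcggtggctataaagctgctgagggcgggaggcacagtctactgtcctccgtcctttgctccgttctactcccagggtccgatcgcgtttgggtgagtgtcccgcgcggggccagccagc
Dhcr7 (chr1:208444184-208444483, plus strand): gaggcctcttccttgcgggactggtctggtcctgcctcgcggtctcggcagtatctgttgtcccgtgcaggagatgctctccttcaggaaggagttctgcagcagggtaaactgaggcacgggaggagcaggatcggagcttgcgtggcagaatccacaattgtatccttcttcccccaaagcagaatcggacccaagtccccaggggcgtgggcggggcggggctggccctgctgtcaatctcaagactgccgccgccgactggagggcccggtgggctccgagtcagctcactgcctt
Scd2 (chr1:253118127-253118426, plus strand): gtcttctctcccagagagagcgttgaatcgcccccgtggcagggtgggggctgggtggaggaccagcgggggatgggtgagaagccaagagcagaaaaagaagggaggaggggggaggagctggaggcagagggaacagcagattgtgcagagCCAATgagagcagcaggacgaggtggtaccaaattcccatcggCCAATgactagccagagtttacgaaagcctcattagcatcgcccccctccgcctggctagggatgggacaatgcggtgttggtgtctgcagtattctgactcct
Fdps (chr2:176804767-176805066, minus strand): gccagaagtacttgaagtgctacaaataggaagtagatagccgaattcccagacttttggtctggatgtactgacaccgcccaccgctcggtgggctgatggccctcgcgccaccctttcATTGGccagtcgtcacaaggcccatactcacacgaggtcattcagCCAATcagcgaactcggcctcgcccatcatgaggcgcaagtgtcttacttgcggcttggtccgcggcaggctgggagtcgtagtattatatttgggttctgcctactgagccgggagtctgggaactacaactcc
Insig1 held 1 CCAAT match, Hmgcs1, Scd2 and Fdps held 2 each, and Dhcr7 held 0. Of the 8467 genes at that level with a window, 39.7% held CCAAT and 1.15% held the sterol core. No count over the sterol lists is given, since 17 of 22 genes had a window, or 77.3%.

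The step was small for most genes and centred on no difference. The median log2 ratio of PNU 8 h over PNU 3 h was -0.001, and 90% of genes lay between -0.41 and 0.50. At least 2-fold higher in PNU 8 h were 40 genes (0.37% of those compared), and at least 2-fold lower were 11 genes (0.102%). At 1.5-fold the counts were 337 higher (3.12%) and 155 lower (1.43%). The balance turned with level. Among the 995 genes at mean levels of 50 to 100, 100 were at least 1.5-fold higher and 52 lower, whereas among the 4055 genes at 1000 or more, 15 were higher and 37 lower. The 95% interval lay wholly beyond 2-fold for 3 higher and 4 lower genes. Just inside the 2-fold limit stood Bend4 and Ptbp3 at 2.01-fold higher, and just outside it Atp7a at 1.99-fold higher and Rnf225 at 1.99-fold lower. The authors' deposited table lists 100 genes with a p-value under 0.05 and 0 with an adjusted p-value under 0.05, from 1 library against 1.

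**Figure D1:**
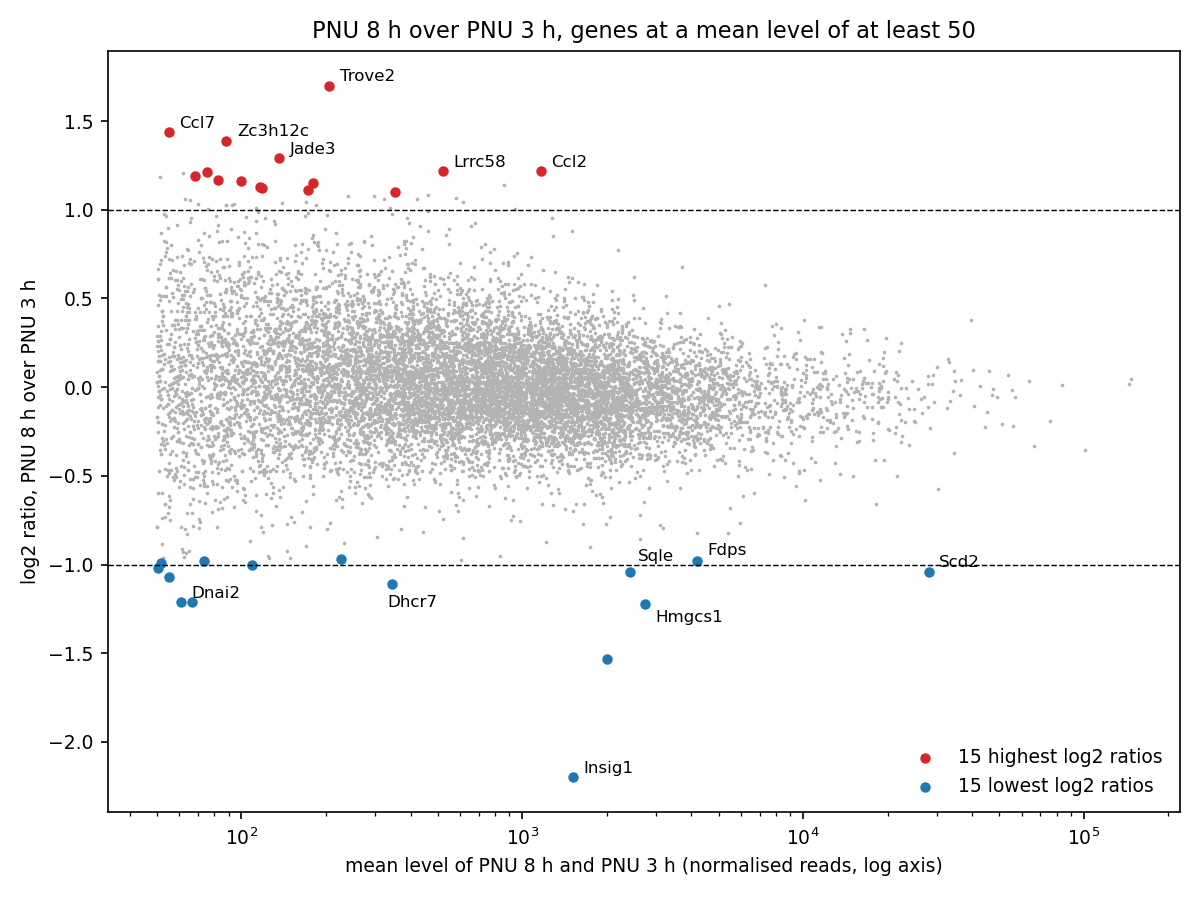
Each point is 1 of 10806 genes, with the mean level of PNU 8 h and PNU 3 h on a log axis and the log2 ratio of PNU 8 h over PNU 3 h on the vertical axis; dashed lines mark 2-fold. The lowest point is Insig1 at -2.20, and Scd2 stands apart at a high level with -1.04.

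Among the 11 genes at least 2-fold lower in PNU 8 h were Insig1, Hmgcs1, Dhcr7 and Sqle, of sterol synthesis and its control, and Scd2, of fatty acid desaturation. Ratios come from the deposited table of the pair, which differs from the scaling over all libraries by 0.014 on the log2 scale. Insig1 (ENSRNOG00000006859), which retains the SREBP complex in the endoplasmic reticulum and is itself an SREBP target, had the lowest ratio of all genes compared. Its level in PNU was 4755 at 30 min, 4334 at 1 h, 3324 at 3 h, 716 at 8 h and 1156 at 12 h. It was 816 in nicotine 12 h and 782 in nicotine 1 h, 811 in MLA 12 h and 3144 in MLA 1 h, and 6156 in DMSO 12 h. PNU 8 h was thus the lowest of the 10 libraries and PNU 3 h the fourth highest. The PNU 8 h level was 4.60-fold lower than that of PNU 3 h, a log2 ratio of -2.20 with a 95% interval of -2.35 to -2.06.

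Srebf2, which encodes SREBP2, was at 3069 in PNU 8 h and 5377 in PNU 3 h (log2 ratio -0.80, -0.87 to -0.72), and Srebf1 at 2284 and 3185 (-0.47, -0.56 to -0.37). Scap, Mbtps1 and Insig2 differed less. Scap, the escort of SREBP, had a log2 ratio of -0.12, Mbtps1, the protease of the first cleavage, -0.08, and Insig2 0.13 with an interval that spans 0. Of the 13 genes of SREBP control and sterol uptake at that level, 3 were at least 1.5-fold lower, beside 1.43% of all genes. At least 1.5-fold higher were 0, beside 3.12% of all genes. The median of the list was -0.17, and its ratios ran between -2.20 and 0.57.

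The enzymes of sterol synthesis were lower together. Of 22 genes of the mevalonate pathway and of the route from squalene to cholesterol, 20 lay below 0, against 5419 of all 10806 genes. Of the 22, 13 were at least 1.5-fold lower, beside 1.43% of all genes. At least 2-fold lower were 3, beside 0.102% of all genes, and 0 were at least 1.5-fold higher, beside 3.12%. Their median log2 ratio was -0.70, beside -0.001 over all genes compared. The list was chosen with earlier results of these libraries known and is no independent evidence of its direction.

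Hmgcs1 (ENSRNOG00000016552), the synthase that forms HMG-CoA, was at 8607, 8150, 5119, 2171 and 2973 at 30 min, 1 h, 3 h, 8 h and 12 h of PNU. It was at 2734 in nicotine 12 h and 1847 in nicotine 1 h, 2496 in MLA 12 h and 6230 in MLA 1 h, and 9969 in DMSO 12 h. Its log2 ratio of PNU 8 h over PNU 3 h was -1.22 (-1.31 to -1.14), and the PNU 3 h level already lay below those at 30 min and 1 h. Fdps, which makes farnesyl diphosphate, was at 3724 in PNU 8 h and 7438 in PNU 3 h (-0.98). Mvd, Idi1 and Mvk, which act between mevalonate and farnesyl diphosphate, had log2 ratios of -0.76, -0.73 and -0.67. Ggps1, which makes the geranylgeranyl donor of protein prenylation rather than sterol, was the one mevalonate gene above 0, at 0.06 (-0.10 to 0.22).

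Past farnesyl diphosphate, Fdft1, the squalene synthase, was at 749 in PNU 8 h and 1463 in PNU 3 h (-0.95, -1.10 to -0.80). Sqle, the squalene epoxidase, was at 2083 in PNU 8 h and 4323 in PNU 3 h (-1.04, -1.13 to -0.95). Its PNU levels at 30 min, 1 h and 12 h were 4270, 4464 and 2280, so it differed little before 3 h. Dhcr7, the last reductase of the route, was at 287 in PNU 8 h, the lowest of the 10 libraries, and 624 in PNU 3 h (-1.11, -1.35 to -0.86). Msmo1 and Cyp51, which demethylate the sterol, had ratios of -0.85 and -0.82. Lbr, a sterol reductase that is also the lamin B receptor, was the one gene of this list above 0, at 0.34 (0.20 to 0.47).

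**Figure D2:**
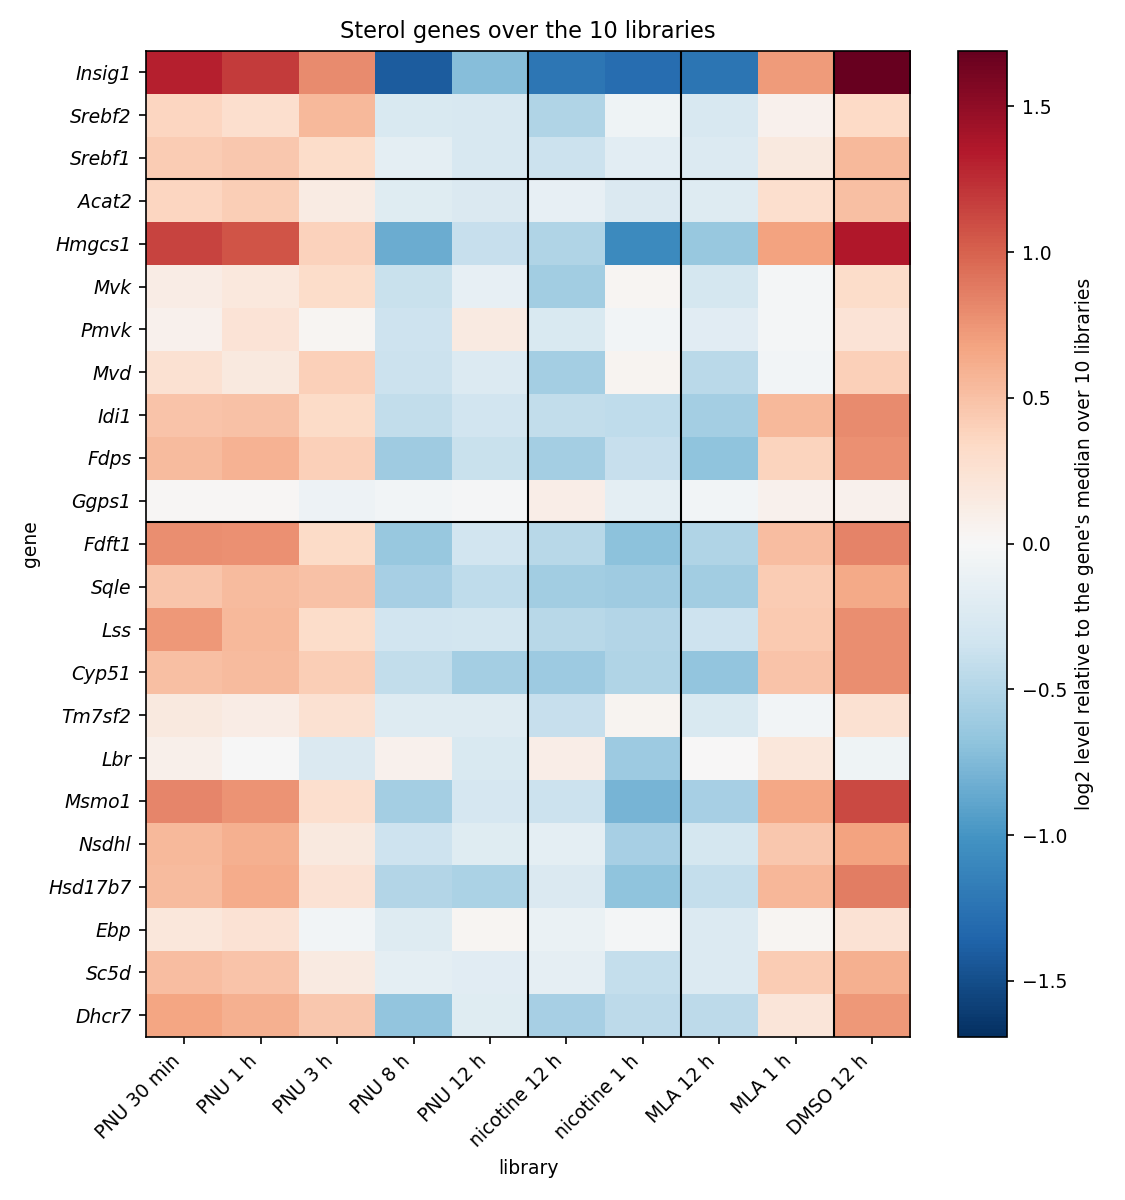
Rows are Insig1, Srebf2 and Srebf1, then mevalonate genes and squalene to cholesterol genes, and columns are the 10 libraries; colour is the log2 level relative to the gene's own median over the libraries. Insig1 reads 716 in PNU 8 h and 3324 in PNU 3 h, and Ggps1 and Lbr do not share the pattern of the other rows.

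Over the 10 libraries the 13 squalene to cholesterol genes had a median, relative to each gene's own 10-library median, of 0.52, 0.54, 0.29, -0.35 and -0.29 (log2) at 30 min, 1 h, 3 h, 8 h and 12 h of PNU. The same median was -0.39 in nicotine 12 h and -0.51 in nicotine 1 h, -0.41 in MLA 12 h and 0.43 in MLA 1 h, and 0.68 in DMSO 12 h. PNU 8 h therefore stood with both nicotine libraries, MLA 12 h and PNU 12 h on these genes, and PNU 3 h with the earlier PNU libraries, MLA 1 h and DMSO 12 h. The DMSO 12 h library was the highest of all, although its time is later than 8 h. In MLA 12 h over MLA 1 h, which shares neither library with the step, the 22 sterol synthesis genes had a median log2 ratio of -0.73. Of these, 22 lay below 0, where 52.0% of all genes did, and 14 were at least 1.5-fold lower, where 0.706% of all genes were. In PNU 12 h over PNU 1 h the median was -0.81 with 15 at least 1.5-fold lower, where 1.15% of all genes were. In nicotine 12 h over nicotine 1 h the median was 0.02, and in DMSO 12 h over PNU 30 min it was 0.14.

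Fatty acid genes were split. Scd2, a stearoyl-CoA desaturase and the most abundant of the 11 lower genes, was at 24232 in PNU 8 h and 50343 in PNU 3 h, a log2 ratio of -1.04 (-1.07 to -1.01). Its PNU levels were 53814 at 30 min, 47953 at 1 h and 22248 at 12 h. The front-end desaturases Fads1 and Fads2 had ratios of -0.90 (-1.01 to -0.80) and -0.52 (-0.62 to -0.42). Fasn, the fatty acid synthase, was at 11160 in PNU 8 h and 12457 in PNU 3 h (-0.14, -0.19 to -0.10), and Acaca, which makes malonyl-CoA, had a ratio of 0.20. Of the 12 genes, 2 were at least 1.5-fold lower, beside 1.43% of all genes, and 0 higher, with a median of -0.13. Genes of sterol efflux showed no common shift, with a median of -0.01 over 7 genes. Abca1, the cholesterol efflux pump, was at 287 in both libraries, and Apoe, a lipid carrier, was at 267 in PNU 8 h and 408 in PNU 3 h (-0.60, -0.87 to -0.33).

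Among the remaining lowest ratios were genes of low level with wide intervals. Dnai2, an axonemal dynein chain, rested on 32 reads in PNU 8 h and 98 in PNU 3 h (-1.21, -1.84 to -0.62). Atoh8, a basic helix-loop-helix factor, rested on 35 and 107 reads (-1.21, -1.80 to -0.65), and Duox2, a hydrogen peroxide-producing oxidase, on 29 and 78 (-1.02, -1.69 to -0.39). Atoh8 was at 53.2 in PNU 8 h and 124 in PNU 3 h, where PNU 3 h was the highest of the 10 libraries. Cgn, the tight junction protein cingulin, was at 95.7, the lowest of the 10, in PNU 8 h and 194, the highest, in PNU 3 h. Pde10a, a cyclic nucleotide phosphodiesterase, had a ratio of -1.07 (-1.71 to -0.46), and Prph, the intermediate filament peripherin, -0.98 (-1.52 to -0.46). Rasl11a, a Ras-like GTPase, was at 202 and 400 (-0.97, -1.27 to -0.68).

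**Figure D3:**
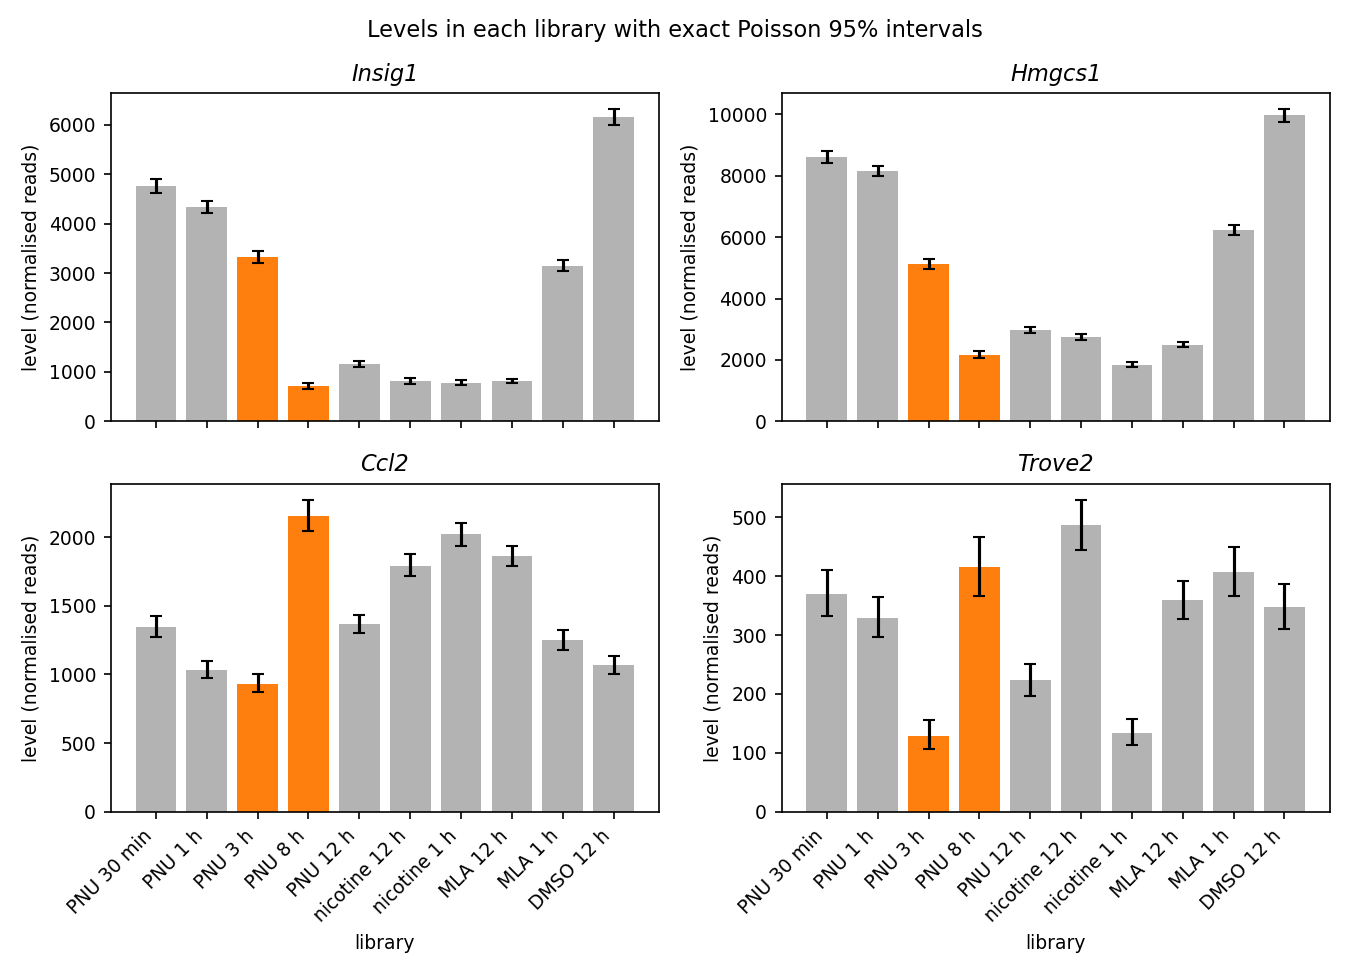
Bars give the level of Insig1, Hmgcs1, Ccl2 and Trove2 in each of the 10 libraries, in normalised reads from 0, with exact Poisson 95% intervals; PNU 3 h and PNU 8 h are orange. Ccl2 is highest in PNU 8 h at 2157 and lowest in PNU 3 h at 933, and Trove2 is low in PNU 3 h at 129 and in nicotine 1 h at 133.

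On the higher side, the monocyte-attracting chemokines Ccl2 and Ccl7 were among the 5 highest ratios. Ccl2 (ENSRNOG00000007159) was at 2157 in PNU 8 h, the highest of the 10 libraries, and 933 in PNU 3 h, the lowest, a log2 ratio of 1.22 (1.10 to 1.35). Its PNU levels at 30 min, 1 h and 12 h were 1348, 1032 and 1364. It was at 1792 in nicotine 12 h and 2021 in nicotine 1 h, 1861 in MLA 12 h and 1251 in MLA 1 h, and 1069 in DMSO 12 h. The PNU 8 h level was nearest to that of nicotine 1 h. The interval of PNU 8 h, 2047 to 2273, overlapped that of nicotine 1 h, 1937 to 2106. The MLA 12 h interval, 1789 to 1935, lay below that of PNU 8 h. Ccl7 (ENSRNOG00000000239) rested on 70 reads in PNU 8 h and 34 in PNU 3 h, with levels of 106 and 39.4 (1.44, 0.83 to 2.08).

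The list of NF-κB and inflammation genes had a median of 0.21 over 22 genes, with 17 above 0, against 5386 of all 10806 genes. Of the 22, 2 were at least 2-fold higher, beside 0.37% of all genes, 4 at least 1.5-fold higher, beside 3.12%, and 0 at least 1.5-fold lower, beside 1.43%. Tnfaip3, a feedback inhibitor of NF-κB, was at 422 in PNU 8 h and 265 in PNU 3 h (0.69, 0.43 to 0.95). Nfkb2, a subunit of the noncanonical pathway, was at 2504 and 1674 (0.59, 0.49 to 0.70). The median of the list was 0.39 with PNU 1 h in place of PNU 3 h, a setting added once the data had been seen. Serpinb2, an inhibitor of plasminogen activators, was at 1136 in PNU 8 h and 611 in PNU 3 h (0.91, 0.75 to 1.07). The list of metalloproteinases and inhibitors that holds it had a median of 0.16 over 15 genes, and no other member was past 1.5-fold.

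Trove2 (ENSRNOG00000003434), which encodes the RNA-binding Ro60 protein, had the highest ratio of all, 1.70 (1.38 to 2.03), or 3.25-fold. It was at 370, 329, 129, 415 and 223 at 30 min, 1 h, 3 h, 8 h and 12 h of PNU. It was at 486 in nicotine 12 h and 133 in nicotine 1 h, 359 in MLA 12 h and 407 in MLA 1 h, and 347 in DMSO 12 h. PNU 8 h was the second highest of the 10 libraries for this gene, and the lowest were PNU 3 h, nicotine 1 h and then PNU 12 h. Lrrc58 and Spopl had their lowest levels in the same 3 libraries. Lrrc58 was at 963 in PNU 8 h and 418 in PNU 3 h, with 400 in PNU 12 h and 266 in nicotine 1 h, and a ratio of 1.22 (1.03 to 1.41). Spopl, an adaptor of a cullin ubiquitin ligase, was at 637 in PNU 8 h and 299 in PNU 3 h, with 336 in PNU 12 h and 218 in nicotine 1 h.

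Over the 40 genes at least 2-fold higher, the median relative to each gene's own 10-library median was 0.07, -0.07, -0.78, 0.28 and -0.50 (log2) at 30 min, 1 h, 3 h, 8 h and 12 h of PNU. The gap between 3 h and 8 h was set by how these genes were chosen. The same median was 0.34 in nicotine 12 h and -1.01 in nicotine 1 h, 0.13 in MLA 12 h and 0.29 in MLA 1 h, and -0.09 in DMSO 12 h. In nicotine 12 h over nicotine 1 h, which shares neither library with the step, 39 of the 40 lay above 0, 33 were at least 1.5-fold higher and 29 at least 2-fold higher, with a median of 1.33. Over all genes in that comparison 49.4% lay above 0, 9.46% were at least 1.5-fold higher and 2.20% at least 2-fold higher. At 1.5-fold, 225 genes were higher in both comparisons, which is 66.8% of the 337 of the step and 21.2% of the 1060 of nicotine 12 h over 1 h. In MLA 12 h over MLA 1 h the 40 genes had a median of -0.18, in PNU 12 h over PNU 1 h -0.39 and in DMSO 12 h over PNU 30 min -0.19.

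**Figure D4:**
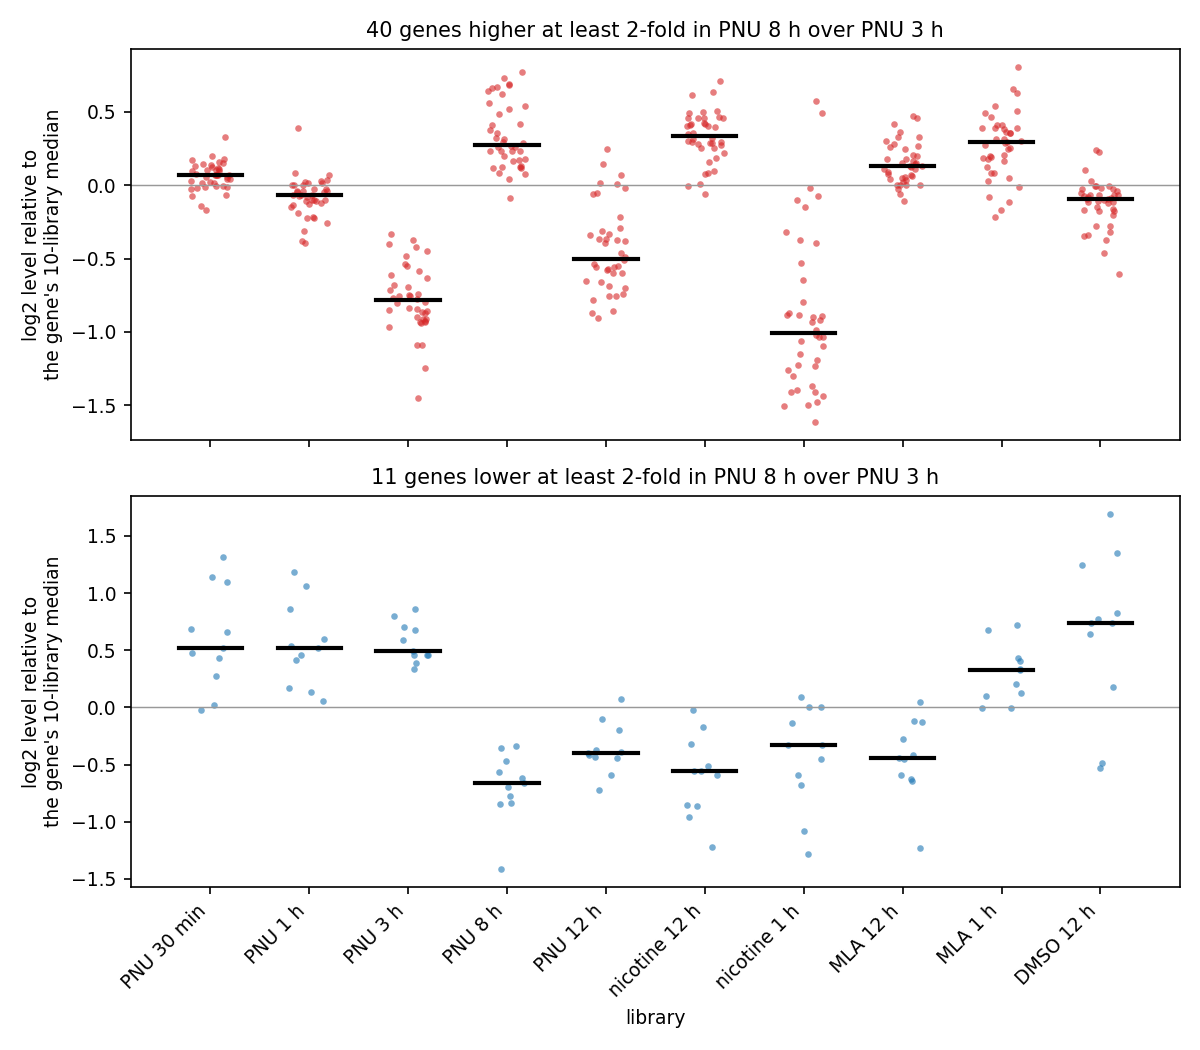
Each point is a gene at least 2-fold higher (upper panel) or lower (lower panel) in PNU 8 h over PNU 3 h, placed by its log2 level relative to its own median over the 10 libraries, with a bar at the median of the genes. In the upper panel the bar of nicotine 1 h is the lowest at -1.01, followed by PNU 3 h at -0.78 and PNU 12 h at -0.50. The genes were chosen on PNU 8 h over PNU 3 h, so the gap between those libraries was set by that choice.

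The higher genes of this arrangement had varied roles. Zc3h12c, a regnase-family RNA-binding protein, had a ratio of 1.39 (0.91 to 1.88), Jade3, a PHD-finger chromatin protein, 1.29 (0.91 to 1.67), and Amer1, an APC-binding regulator of Wnt signalling, 1.15 (0.83 to 1.47). Sass6, a component of the centriole cartwheel, had 1.13, Wnk3, a kinase that acts on ion cotransporters, 1.12, and Ap5m1, an adaptor complex subunit, 1.11. Ppm1k, the phosphatase that activates branched-chain ketoacid dehydrogenase, had 1.17 (0.69 to 1.67) but departed from this arrangement in PNU 12 h. Ppm1k was at 150 in PNU 8 h, only the eighth of the 10 libraries, 67.3 in PNU 3 h and 161 in PNU 12 h. A few higher genes were less low in nicotine 1 h. Ntn4, a secreted netrin, was at 138 in PNU 8 h and 60.3 in PNU 3 h, with 79.9 in nicotine 1 h. Zswim8, an adaptor in microRNA decay, was at 126 and 55.7, with 76.2 in nicotine 1 h, and Zmat3, an RNA-binding p53 target, at 182 and 82.4, with 105 in nicotine 1 h.

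The neighbouring steps share a library with this one, so their values are given side by side only. In PNU 3 h over PNU 1 h the 40 higher genes ran between -1.36 and -0.15 with a median of -0.70, and in PNU 12 h over PNU 8 h between -1.27 and 0.11 with a median of -0.82. The 11 lower genes had medians of -0.01 and 0.40 in those steps. In comparisons that share neither library, the 11 lower genes had medians of -0.75 in MLA 12 h over 1 h, -0.83 in PNU 12 h over 1 h, -0.18 in nicotine 12 h over 1 h and 0.15 in DMSO 12 h over PNU 30 min. Of the 155 genes at least 1.5-fold lower, the medians were -0.04 in MLA and -0.03 in PNU 12 h over 1 h, and -0.48 in nicotine. The 22 sterol synthesis genes had medians of -0.22 in PNU 3 h over PNU 1 h and 0.13 in PNU 12 h over PNU 8 h. Against PNU 1 h in place of PNU 3 h, chosen after seeing the data, 2 of the 40 higher genes were still at least 2-fold higher in PNU 8 h, where 0.174% of all genes were, and their median was 0.37. Against PNU 1 h, 7 of the 11 lower genes were at least 2-fold lower, where 0.165% of all genes were, with a median of -1.11, and the 22 sterol synthesis genes had a median of -0.90. PNU 8 h over PNU 1 h reuses the PNU 8 h library by which the 40 and the 11 genes were chosen. Its counts are thus partly set by that choice and are no independent support.

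Several lists of response genes lay lower. The immediate early list, genes switched on within minutes of a stimulus, had a median of -0.19 over 27 genes, with 22 below 0, against 5419 of all 10806 genes. Of the 27, 4 were at least 1.5-fold lower, beside 1.43% of all genes, and 0 were higher, beside 3.12%. Egr1, a zinc-finger factor, was at 2945, 665, 2332, 1434 and 1596 at 30 min, 1 h, 3 h, 8 h and 12 h of PNU, and at 5448 in DMSO 12 h. Its ratio of PNU 8 h over PNU 3 h was -0.69 (-0.80 to -0.57), while its PNU 1 h level was below both. Atf3 had -0.84 (-1.09 to -0.59), Cyr61, a secreted matrix protein, -0.78 (-0.85 to -0.70) and Klf4 -0.77 (-0.88 to -0.67). With PNU 1 h in place of PNU 3 h the immediate early median was 0.11. Of 10 KLF factors, 2 were at least 1.5-fold lower, Klf4 and Klf5, beside 1.43% of all genes, and 0 higher, with a median of -0.27, or 0.03 against PNU 1 h.

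Of 19 genes of BMP and TGF-β signalling, 3 were at least 1.5-fold lower, beside 1.43% of all genes, and 0 higher, beside 3.12%, with a median of -0.30, or 0.02 against PNU 1 h. Id2, an inhibitor of basic helix-loop-helix factors, was at 1254, 1943, 2093, 1130 and 1028 at 30 min, 1 h, 3 h, 8 h and 12 h of PNU and had a ratio of -0.87. Smad6, an inhibitory SMAD, was at 156 in PNU 8 h and 294 in PNU 3 h (-0.89, -1.24 to -0.56), and Pmepa1, a feedback inhibitor of TGF-β signalling, at 5862 and 10045 (-0.76, -0.82 to -0.71). Of 14 circadian clock genes, 2 were at least 1.5-fold lower, beside 1.43% of all genes: Ciart at -0.87 (-1.30 to -0.44) and Nfil3 at -0.67 (-0.84 to -0.49), with a median of -0.21.

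**Figure D5:**
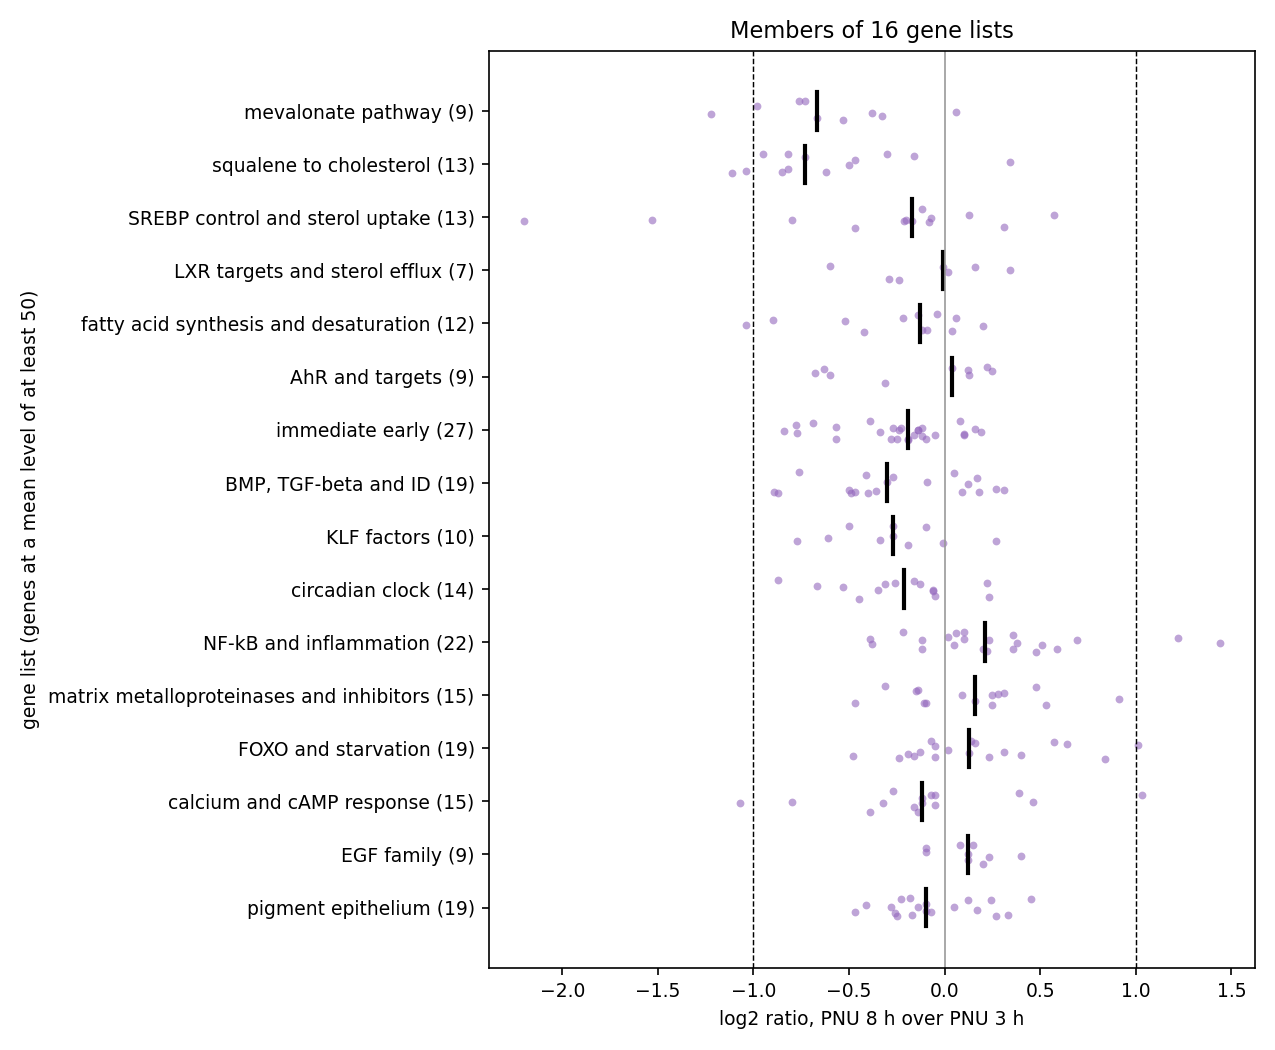
Each point is a gene at a mean level of at least 50, placed by its log2 ratio of PNU 8 h over PNU 3 h, in 16 gene lists; the bar is the median of the list, dashed lines mark 2-fold and the number of genes is in parentheses. The medians of the mevalonate and squalene lists stand at -0.67 and -0.73.

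The aryl hydrocarbon receptor list, a ligand-activated factor and its xenobiotic-metabolising targets, had a median of 0.04 over 9 genes. Of the 9, 3 were at least 1.5-fold lower, beside 1.43% of all genes, and 0 were higher, beside 3.12%. The 3 were its cytochrome and dehydrogenase targets. Cyp1a1 was at 28.3, 83.4, 289, 188 and 188 at 30 min, 1 h, 3 h, 8 h and 12 h of PNU, and at 21.5 in DMSO 12 h. Levels under the other compounds were 201 in nicotine 12 h and 195 in nicotine 1 h, and 189 in MLA 12 h and 273 in MLA 1 h. Cyp1a1 was thus highest of the PNU libraries at 3 h, and its ratio of PNU 8 h over PNU 3 h was -0.60 (-0.93 to -0.29). Cyp1b1 was at 2659, 3522, 9018, 5567 and 4289 in PNU in the same order of times and 1947 in DMSO 12 h, with a ratio of -0.68 (-0.74 to -0.63). It was at 5729 in nicotine 12 h and 5859 in nicotine 1 h, and 5277 in MLA 12 h and 8164 in MLA 1 h. Levels well above that of DMSO 12 h were therefore not confined to PNU for either gene. Aldh3a1 was at 237 in PNU 8 h and 370 in PNU 3 h (-0.63, -0.91 to -0.35). Ahr itself had a ratio of 0.13, Nqo1 0.22 and Tiparp -0.31.

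Of 19 genes of the FOXO and starvation list, 3 were at least 1.5-fold higher, beside 3.12% of all genes, and 0 lower, beside 1.43%, with a median of 0.13. Rictor, the defining subunit of mTORC2, was at 596 in PNU 8 h and 298 in PNU 3 h (1.01, 0.78 to 1.24), with 203 in nicotine 1 h. Txnip, an inhibitor of thioredoxin, was at 1586 in PNU 8 h, the highest PNU level, and 1028 in PNU 3 h (0.64, 0.51 to 0.77). Yod1, a deubiquitinase, had 0.84 (0.43 to 1.25). The list of calcium and cAMP response genes held Creb1, the cAMP-responsive factor, at 325 in PNU 8 h and 161 in PNU 3 h (1.03, 0.71 to 1.34), and Sik1, a kinase that CREB induces, at 357 and 627 (-0.80, -1.02 to -0.57); the median was -0.12.

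Growth factor, epithelial and housekeeping lists had 0 genes past 1.5-fold, where 3.12% of all genes were higher and 1.43% lower. The count of 0 is close to those shares. Hbegf, an EGF family ligand, was at 2124 in PNU 8 h and 2295 in PNU 3 h (-0.10, -0.20 to 0.00), and the EGF family median was 0.12 over 9 genes. Pigment epithelium genes had a median of -0.10 over 19 genes. Lysosome and autophagy genes had a median of -0.25, with 17 of 21 below 0, against 5419 of all 10806 genes, and cathepsin B (Ctsb) at -0.41. Mitotic genes had a median of 0.14, with 33 of 43 above 0, against 5386 of all 10806 genes. Replication genes had a median of -0.01 over 47. The medians of ribosomal protein genes, which share reads with near-identical copies, of nuclear oxidative phosphorylation genes and of genes of the mitochondrial genome were -0.04, -0.06 and 0.03. Chrnb1, the single nicotinic or muscarinic receptor gene at that level, was at 509 in both libraries. In 20 further lists with at least 5 genes at that level the median lay between -0.17 and 0.28.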

How the data were processed

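Polyadenylated RNA of 10 RPE-J cell samples, 1 library per condition, was analysed, and PNU 8 h was compared with PNU 3 h. Per the labels' protocols the cells were detached with trypsin and RNA was purified from Trizol. Per the submitters' processing notes the tools were Trimmomatic 0.36, STAR 2.5.2b, featureCounts, Subread 1.5.2 and DESeq2; build, annotation and strandedness were not given in the sources used here. In all, 39 tables deposited by the authors hold a level per gene for 2 libraries, and this signal behaves as reads divided by a size factor of the pair. The log2 fold change deposited by the authors equals the log2 ratio of the 2 levels within 2.7e-05, and the deposited p-values come from 1 library against 1. Overlapping and antisense genes may share reads.

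Dividing each column by the value of 1 read gave whole numbers for 100% of values, within 0.01; these reads set the intervals and the scaling of all 10 libraries by the median of ratios. No count model was run. Intervals at 95% are exact Clopper-Pearson for ratios and exact Poisson for levels. Their median width on the log2 scale was 1.15 at mean levels of 50 to 60 and 0.18 above 1000. Column numbers were tied to samples by the file records for 9 libraries, and the remaining number was given to PNU 12 h. The 53 symbols on more than 1 gene were left out of lists, and 19 names had become dates. Members, the 50 gene lists and the comparisons were chosen with earlier results of these data known. Named were the 15 highest and 15 lowest ratios with a unique symbol and up to 4 genes of a list, with all members of the sterol, fatty acid and aryl hydrocarbon receptor lists; a few others were chosen after their values were seen. Some genes that this rule names are not reported here. Promoters were matched by symbol or identifier for 8467 of 10806 genes. The scripts, tested on simulated data, ran in Python 3.11.15 with pandas 2.3.3 and scipy 1.17.1. The alternatives were other level limits, scalings, a pseudocount of 10 and other fold rules.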

Additional observations from a re-analysis of the deposited data

Results flagged for a closer look

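For 4 named genes the values of 12 h over 1 h lay past 1.5-fold on opposite sides in nicotine and in PNU, comparisons of 2 libraries each, and the difference was not tested. Lrrc58 had a log2 ratio of 1.66 in nicotine and -0.81 in PNU. Amer1 had 1.51 in nicotine and -0.79 in PNU. Sass6 had 1.31 in nicotine and -0.63 in PNU. Wnk3 had 1.75 in nicotine and -0.63 in PNU.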

How the results depend on the processing

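No paired analysis was possible because each condition has 1 library. The counts of genes at least 2-fold higher and lower, 40 and 11, were 151 and 111 at mean levels of at least 10, 14 and 6 at 200, and 151 and 114 over every listed gene. Higher genes numbered 25 with a pseudocount of 10, and lower genes 7 when scaled to total reads. By the nearer bound of the interval they were 3 and 4, and at 1.5-fold 337 and 155. With libraries chosen after seeing the data they were 19 and 18 with PNU 1 h in place of PNU 3 h, and 19 and 22 with PNU 12 h in place of PNU 8 h. With PNU 1 h, list medians were -0.90 for the 22 sterol synthesis genes, -0.95 for squalene to cholesterol, -0.20 for sterol efflux, 0.11 for immediate early, 0.02 for BMP and TGF-β, 0.03 for KLF, 0.39 for NF-κB, -0.12 for lysosome, -0.10 for mitosis, -0.26 for ribosomal protein, -0.24 for oxidative phosphorylation and -0.06 for mitochondrial genome genes. With PNU 12 h they were -0.44 for mevalonate, -0.14 for sterol efflux, -0.27 for fatty acid, -0.10 for EGF family, 0.32 for ribosomal protein, 0.27 for oxidative phosphorylation and 0.12 for mitochondrial genome genes, and Lrrc58 and Wnk3 turned to -0.06 and -0.17. With PNU 1 h, Ppm1k turned to -0.12. Scaled to total reads, the medians of ribosomal protein and mitochondrial genome genes were 0 and 0.08. With step genes taken at 1.5-fold, medians in nicotine 12 h over 1 h were 0.89 for higher genes, against 1.33 at 2-fold, and -0.48 for lower genes, against -0.18. For lower genes they were -0.04 in MLA 12 h over 1 h, against -0.75, and -0.03 in PNU 12 h over 1 h, against -0.83. The cause of these differences was not tested. At mean levels of 50 to 60 a gene rested on a median of 48 reads in PNU 8 h and 61 in PNU 3 h, which limits single ratios there.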
